A study of Mus musculus with 14 samples.

Results

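Integrins and laminins are the receptors and the ligands of 1 adhesion system, and 37 of the 44672 genes in the authors' deposited table belong to these gene families. The members were taken by name, as protein-coding genes whose symbol is that of an integrin alpha subunit, of Itgb1 to Itgb8 or of a laminin alpha, beta or gamma chain. They comprise 18 integrin alpha subunits, 8 integrin beta subunits and 11 laminin chains. The rule used no measured value. The table compares RNA on the ribosomes of POMC Lepr+ neurons with that of POMC Glp1r+ neurons, 2 groups of mouse hypothalamic cells that express the Pomc gene together with either the leptin receptor or the receptor for glucagon-like peptide.

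The mice were random-fed, 12 weeks old and of both sexes. The genotype of the POMC Lepr+ line was POMCDre+/- LeprCre+/- ROSA26lSlrSrEGFPL10a+/-, and that of the POMC Glp1r+ line was POMCDre+/- Glp1rCre+/- ROSA26lSlrSrEGFPL10a+/-. EGFP-tagged ribosomal protein L10a is made only where both recombinases have acted, also where a driver was active earlier in the life of the cell. Dre comes from a Pomc transgene, so tagging depends on that transgene and on each Cre allele. An anti-EGFP pulldown (IP) and its input were sequenced from 4 pools of 6 POMC Lepr+ mice and from 3 pools of 12 POMC Glp1r+ mice, 14 libraries in all. The lines therefore differ in pool size as well as in the Cre driver, and these cannot be told apart. The input is whole hypothalamus by the paper but a dissected arcuate nucleus by the series record, which leaves its tissue unsettled.

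Integrins are receptors that span the cell membrane, each made of 1 alpha and 1 beta subunit, and they link the cytoskeleton to the extracellular matrix or to proteins on other cells. The alpha subunit largely sets the ligand. Laminins are secreted trimers of 1 alpha, 1 beta and 1 gamma chain that form the sheet of the basement membrane. In the brain such membranes surround blood vessels and line the outer surface, and integrins act in neurons in the guidance of processes and at synapses.

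The value given for each gene is its mean IP/input ratio, the count in the IP over that in the input of the same pool, averaged over the pools of a line. A ratio above 1 means more reads in the pulldown than in the input as a mean over pools, which 1 high pool can bring about. Above or below the input refers to this mean. There was no correction for library depth, so 1 is not an exact boundary of enrichment. A log2 difference is given as POMC Glp1r+ minus POMC Lepr+, with its standard error (SE) from the authors' fit. Values of single pools and read totals were not used here, so whether the pools of the lines overlap is unknown. The only measure of the spread is the coefficient of variation (CV) between pools that the fit assumed, which was solved from the SE and is 1 value for both lines. A bulk pulldown cannot tell fewer cells that carry an RNA from less of it in each cell. A gene said to be higher in the neurons of a line had a higher ratio in its pools. Which cells held the RNA is not known from that ratio. Pomc itself had a ratio of 239 in POMC Lepr+ pools and 81.6 in POMC Glp1r+ pools, and the 5 POMC neuron markers examined were above 1 in both lines.

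At an adjusted p under 0.05, 3 members differed between the lines. Itgb7 and Lamc3 were higher in POMC Glp1r+ neurons and Itga6 was higher in POMC Lepr+ neurons. These are 2 and 1 of the 34 members with a p-value. Over all 43199 genes with a p-value, 1.28% were called higher in POMC Glp1r+ and 0.836% higher in POMC Lepr+ neurons. For protein-coding genes whose ratio differed from 1 in either line, the background genes from here on, the shares were 1.94% and 1.19%. With so few members called, the counts themselves do not set these families apart from other genes. All 3 calls rest on a normal reference for the Wald statistic. With a t distribution of 5 degrees of freedom, no gene of the table passed the threshold, and an unadjusted p under 0.05 was left for 4 of the 34 members, 7.22% of the background genes and 4.92% of all genes with a p-value.

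Itgb7, the integrin beta subunit best known from lymphocytes that home to the gut, had a mean ratio of 0.189 in POMC Lepr+ pools and of 5.50 in POMC Glp1r+ pools. This was the lowest ratio of any member in the first line and the highest of any member in the second. The log2 difference was 4.87 (SE 1.11, 95% interval 2.68 to 7.05), a 29.2-fold higher ratio (the authors' Wald test, adjusted p = 0.00199). Among the background genes the ratio stood at percentile 0.495 in POMC Lepr+ pools and at percentile 99.0 in POMC Glp1r+ pools. The spread behind it was wide, with a fitted CV between pools of 101%. Its sums over pools could come from as few as 7 reads in the largest library, so Itgb7 may rest on few reads. Such a bound was under 10 for 32 of the 37 members and for 78.1% of the background genes. Its gene lies on chromosome 15 from 102215995 to 102231944 on the minus strand (GRCm38), and none of its exons overlaps another annotated gene.

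The Itgb7 subunit pairs with 2 alpha subunits, the products of Itga4 and Itgae. Neither gene passed the threshold. Itga4 had ratios of 0.514 in POMC Lepr+ pools and 0.962 in POMC Glp1r+ pools, a log2 difference of 0.91 (SE 0.48, adjusted p = 0.528). Itgae went the other way, with ratios of 4.30 and 1.41 and a log2 difference of -1.61 (SE 1.17, adjusted p = 0.837). The point values of the partners thus lay on opposite sides of 0. Madcam1, the gut vessel ligand of the Itga4 and Itgb7 receptor, had ratios of 0.285 and 1.06 (adjusted p = 0.212). Vcam1, another ligand of Itga4 receptors, had 0.520 and 0.266 (adjusted p = 0.270), and Cdh1, the epithelial ligand of the Itgae and Itgb7 receptor, had 0.433 and 0.301 (adjusted p = 1).

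Because Itgb7 is known from white blood cells, 13 markers of leukocytes other than microglia were read beside it. Their ratios ran from 0.184 to 3.46 in POMC Lepr+ and from 0.178 to 2.31 in POMC Glp1r+ pools, and the summed ratios were 14.7 and 11.5. Of these markers, 2 passed the threshold, in opposite directions. Cd79a, a B cell receptor component, was higher in POMC Glp1r+ neurons (0.184 and 0.755, adjusted p = 0.00181), and Cd3e, a T cell receptor component, was higher in POMC Lepr+ neurons (1.46 and 0.225, adjusted p = 0.0475). The part of such cells in the Itgb7 result was not tested, and a ratio does not say how much marker RNA was present.

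Lamc3 encodes a laminin gamma chain, and loss of the human gene malforms the occipital cortex. Its ratio was 0.414 in POMC Lepr+ pools and 2.88 in POMC Glp1r+ pools, below the input in the first line and above it in the second. The log2 difference was 2.80 (SE 0.66, 95% interval 1.50 to 4.09), a 6.95-fold higher ratio (the authors' Wald test, adjusted p = 0.00317), with a fitted CV of 59.9%. The gene lies on chromosome 2 from 31887291 to 31946539 on the plus strand. Of its exon bases, 6.27% overlap the antisense gene Gm13441, whose reads cannot be told apart, since the library kit does not mark strand.

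Itga6 encodes the alpha subunit of 2 laminin receptors, formed with Itgb1 in many cells and with Itgb4 in epithelia. Of the 3 members called, it had the smallest SE. The ratio was 1.39 in POMC Lepr+ pools and 0.536 in POMC Glp1r+ pools. The log2 difference was -1.37 (SE 0.38, 95% interval -2.12 to -0.63), a 2.59-fold higher ratio in POMC Lepr+ neurons (the authors' Wald test, adjusted p = 0.0199), with a fitted CV of 34.2%. This call was lost at an adjusted p under 0.01. The gene lies on chromosome 2 from 71745616 to 71858416 on the plus strand, with no exon overlap.

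The beta partners of Itga6 lay on the same side of 0 without passing the threshold. Itgb1, the partner of most alpha subunits, had ratios of 2.66 and 1.41, above the input in both lines. Its log2 difference was -0.91 with the smallest SE of any member (0.33), and the interval ran from -1.56 to -0.27 (unadjusted Wald p from the authors' DESeq2 fit = 0.00576, adjusted p = 0.145). Itgb4 had ratios of 0.528 and 0.354, below the input in both lines, and a log2 difference of -0.58 (SE 0.65, adjusted p = 1).

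**Figure D1:**
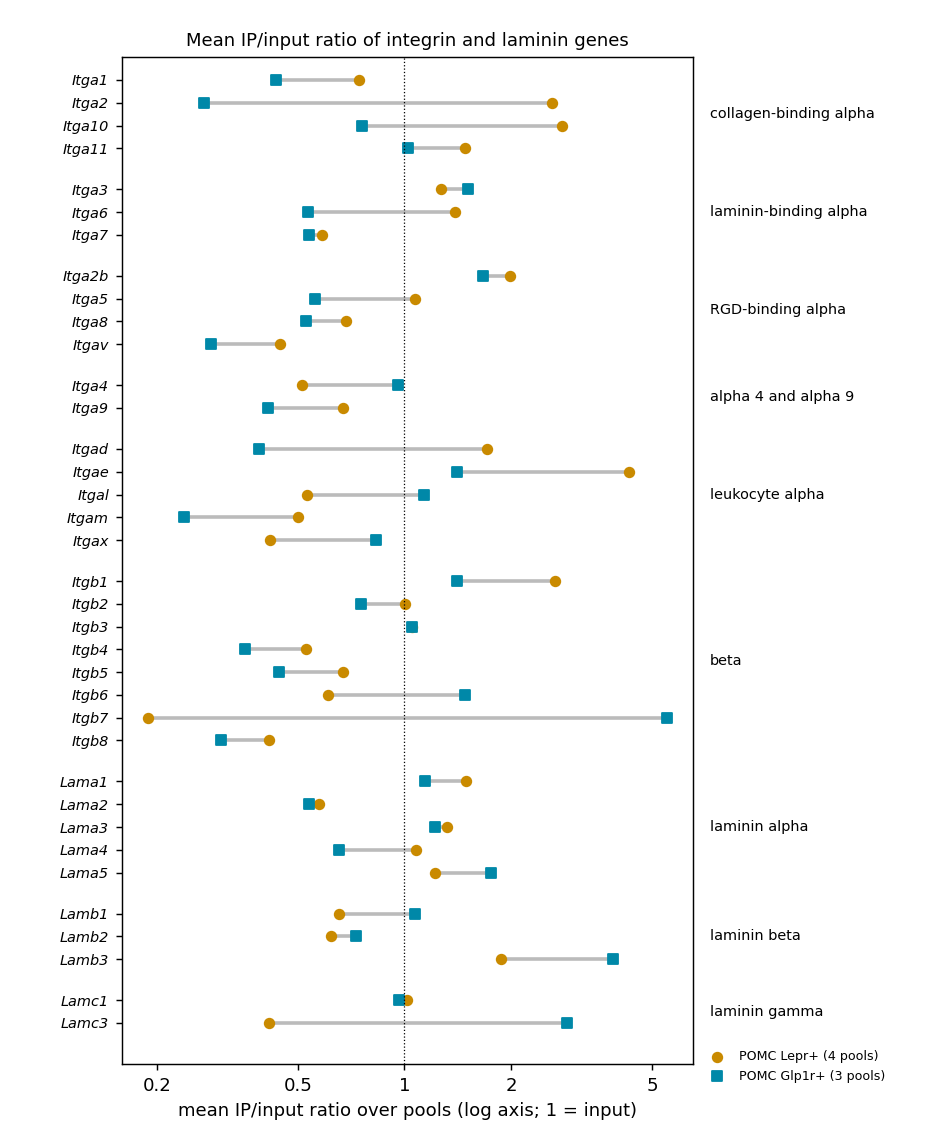
Mean IP/input ratio (log axis) of 36 members in POMC Lepr+ (circles, 4 pools) and POMC Glp1r+ neurons (squares, 3 pools), in groups by role; the dotted line marks a ratio of 1. Itgb7 spans the widest gap, from 0.189 to 5.50, and Itga2 and Lamc3 follow.

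The collagen-binding alpha subunits, all of which pair with Itgb1, were Itga1, Itga2, Itga10 and Itga11. All 4 had log2 differences below 0, with a median of -1.33, and none was called. Itga10, first known as a collagen receptor of cartilage, had ratios of 2.79 and 0.762 and a log2 difference of -1.87 (SE 0.88, unadjusted Wald p from the authors' DESeq2 fit = 0.0345, adjusted p = 0.407). Of its exon bases, 33.5% overlap Gm42957 on the same strand, so its reads are partly shared. Itga2, the platelet collagen receptor subunit, had the largest difference of the group, with ratios of 2.62 and 0.273 and a log2 difference of -3.26 (interval -5.74 to -0.78). No p-value is given for Itga2. The authors' DESeq2 fit leaves the p-value out when 1 sample is extreme, and the fitted CV of Itga2 was 115%. Itga1 had ratios of 0.744 and 0.433, and Itga11 had 1.48 and 1.02.

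The laminin-binding alpha subunits beside Itga6 showed smaller differences. Itga3, a receptor subunit for laminins of epithelia and kidney, had ratios of 1.27 and 1.51, a log2 difference of 0.25 (SE 0.39). Itga7, the main laminin receptor subunit of muscle, had 0.587 and 0.538, a log2 difference of -0.13 (SE 0.81). Their intervals ran from -0.51 to 1.02 and from -1.71 to 1.46. The value of Itga6 lies outside the first interval and inside the second, and the difference between these genes was not tested.

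The alpha subunits that bind the RGD motif were Itga5, Itga8, Itgav and Itga2b. None was called and none had an unadjusted p under 0.05, and all 4 log2 differences were below 0 with a median of -0.51. Itgav, which pairs with several beta subunits and binds vitronectin and latent TGF-beta, was below the input in both lines (0.446 and 0.284). Itgb8, its partner in the activation of TGF-beta by glia, was also low in both (0.414 and 0.303). Itga2b, the platelet fibrinogen receptor subunit, was above the input in both (1.99 and 1.67). Itga5, a fibronectin receptor subunit, had ratios of 1.07 and 0.560, and Itga8, a receptor subunit for nephronectin, had 0.683 and 0.528 with the largest SE of any member (1.32). Itga9, a relative of Itga4 that binds tenascin, had 0.669 and 0.412.

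The leukocyte alpha subunits, which apart from Itgae pair with Itgb2, went in both directions and none was called. Itgad had ratios of 1.71 and 0.388 and a log2 difference of -2.14 (SE 1.00, unadjusted Wald p from the authors' DESeq2 fit = 0.0318, adjusted p = 0.391), with 19.7% of its exon bases shared with other genes. Itgam, a microglial and myeloid subunit, had the lowest ratio of any member in POMC Glp1r+ pools (0.502 and 0.238), but 68.7% of its exon bases are shared with Gm49368 on the same strand. Itgax had ratios of 0.417 and 0.833, and its sums over pools could come from as few as 3 reads in the largest library, so it may rest on very few reads. Itgal, which forms the lymphocyte receptor for Icam proteins, had 0.531 and 1.13 and no p-value. Itgb2, their shared partner, had ratios of 1.00 and 0.755 and a log2 difference of -0.41 (SE 1.17). All 8 microglia markers had log2 differences below 0, with summed ratios of 5.01 and 3.06. Their part in the values of Itgam was not tested.

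None of the remaining beta subunits was called. Itgb3, the platelet partner of Itga2b, had ratios of 1.05 in both lines, but its interval from -1.90 to 1.90 on the log2 scale does not show that the lines are alike. Itgb5, an Itgav partner, had 0.673 and 0.443. Itgb6, an Itgav partner of epithelia, had 0.609 and 1.48 and no p-value.

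**Figure D2:**
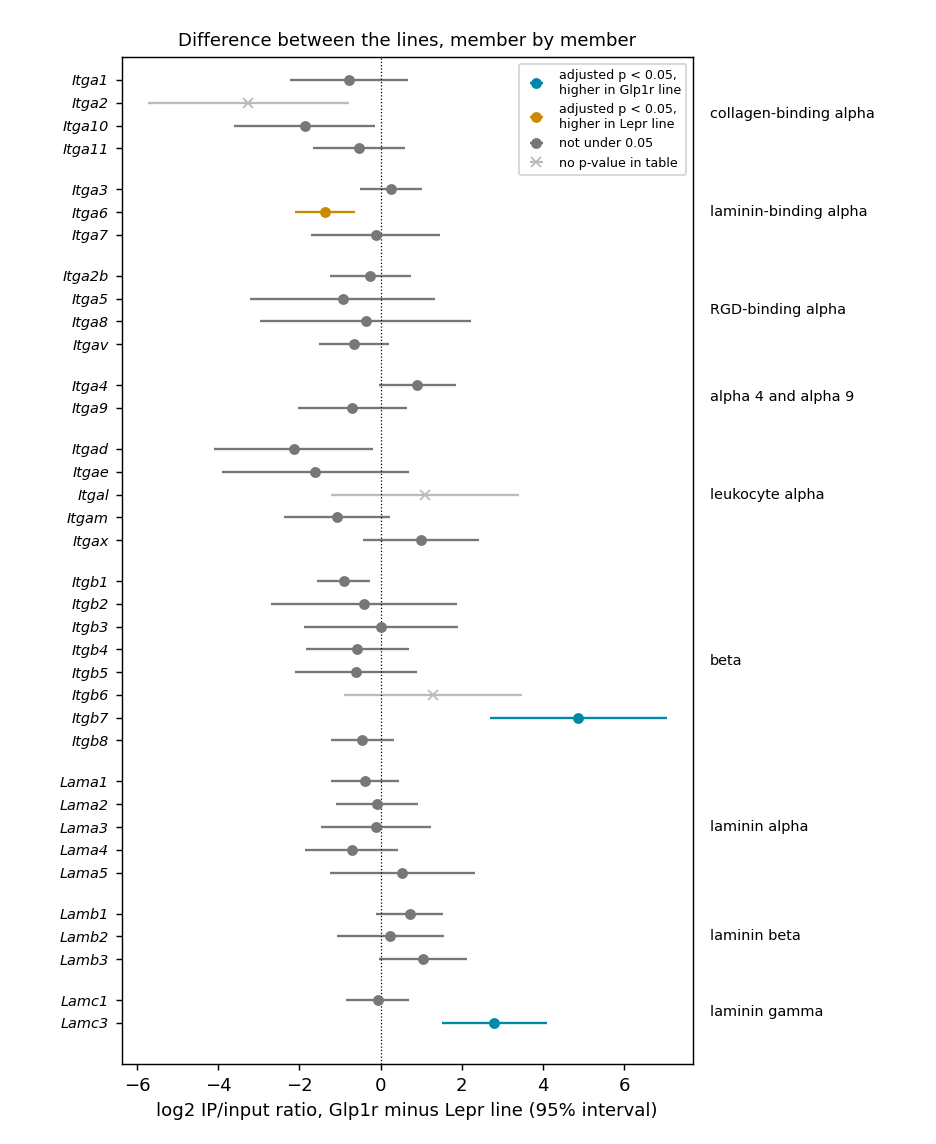
Log2 difference of the mean IP/input ratio, POMC Glp1r+ minus POMC Lepr+, for 36 members in groups by role, with its 95% interval (normal). The intervals of Itgb7 and Lamc3 lie above 0 and that of Itga6 below 0, as do those of Itga2, Itga10, Itgad and Itgb1, which were not called; crosses mark the 3 members with no p-value.

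Among the other laminins, Lamc1, the gamma chain of most laminins, had ratios of 1.02 and 0.968, a log2 difference of -0.07 (SE 0.40, interval -0.85 to 0.71). The difference between Lamc1 and Lamc3 was not tested.

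The 3 laminin beta chains had log2 differences above 0 and none was called or had an unadjusted p under 0.05. Lamb3, of epithelial laminins, had ratios of 1.88 and 3.88, the second highest ratio of any member in POMC Glp1r+ pools, and a log2 difference of 1.05 (SE 0.55, adjusted p = 0.525). Lamb1, of widely expressed laminins, had 0.654 and 1.07, a log2 difference of 0.71 (SE 0.43), and Lamb2, of vessels, muscle and synapses, had 0.619 and 0.729, one of 0.24 (SE 0.67).

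None of the laminin alpha chains was called or had an unadjusted p under 0.05, and their SEs ranged up to that of Lama5. Lama5, an alpha chain of vessels and epithelia, had ratios of 1.22 and 1.76, a log2 difference of 0.53 (SE 0.91). Lama3, of epithelia, had 1.32 and 1.22. Lama1, of early embryonic and outer brain membranes, had 1.49 and 1.14. Lama2, the chain lost in a congenital muscular dystrophy, was below the input in both lines (0.576 and 0.538), and Lama4, of vessels, had 1.08 and 0.655. The summed ratios of 8 endothelial markers were 9.0 in POMC Lepr+ pools and 5.21 in POMC Glp1r+ pools. Those of 8 mural markers were 8.20 and 7.53, of which Acta2 alone gave 0.444 and 2.75. Those of 7 fibroblast markers were 5.35 and 4.13. Log2 differences were below 0 for 5 of 8 endothelial, 6 of 8 mural and 4 of 7 fibroblast markers. None of these markers was called (1 endothelial and 1 mural marker had no p-value), and 2, 1 and 1 of them had an unadjusted p under 0.05 in the authors' DESeq2 test. The mural one was Acta2, with a log2 difference above 0, and those of the endothelial and fibroblast ones were below 0. The part of vessel and meningeal cells in the laminin values was not tested.

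Over all 37 members, 26 log2 differences were below 0 (70.3%), against 44.4% of the 18395 protein-coding background genes. The median log2 difference was -0.39 against 0.07. The integrins accounted for most of this, with 20 of 26 below 0 and a median of -0.56, while 6 of 11 laminins were below 0 with a median of -0.07. The ratios themselves were above 1 for 19 members in POMC Lepr+ and for 16 in POMC Glp1r+ pools, and 13 members were below 1 in both lines. In POMC Lepr+ pools the high members included Itgae, Itga10, Itgb1 and Itga2 (4.30 to 2.62) and the 5 lowest were Itgb7, Itgb8, Lamc3, Itgax and Itgav (0.189 to 0.446). In POMC Glp1r+ pools the high members included Itgb7, Lamb3, Lamc3 and Lama5 (5.50 to 1.76) and the lowest were Itgam, Itga2, Itgav, Itgb8 and Itgb4 (0.238 to 0.354).

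An unadjusted p under 0.05 was found for 7 of the 34 members with a p-value and for 15.0% of the protein-coding genes. The members were measured with more error than most genes. Their median SE was 0.67 against 0.40 for protein-coding background genes, and their median fitted CV was 61.1% against 35.8%. Only 9 members had an SE under 0.5, while 8 had an SE above 1. Itga2, Itgal and Itgb6 carry no p-value, which the authors' DESeq2 fit leaves out when 1 sample is extreme, and their fitted CVs were between 101% and 115%. The CV of Itgb7 was of the same size, and a p-value was given for it.

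**Figure D3:**
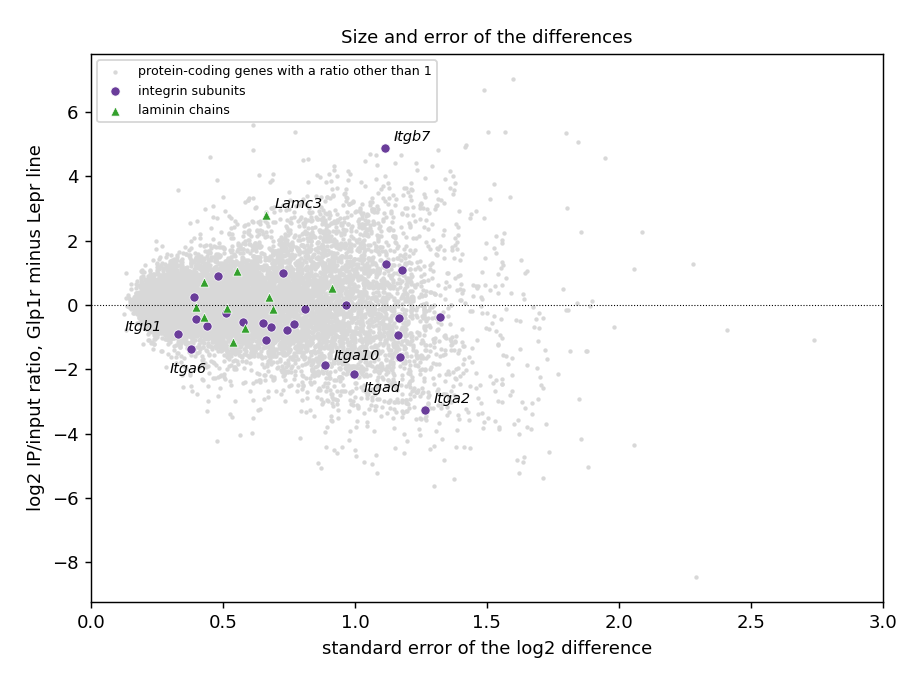
Log2 difference, POMC Glp1r+ minus POMC Lepr+, against its standard error for 26 integrin subunits (circles), 11 laminin chains (triangles) and 18395 protein-coding background genes (grey). Itgb7 combines the largest difference of the members (4.87) with an SE of 1.11, and Itga6 a smaller one (-1.37) with an SE of 0.38.

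Genes that act with the integrins were read from 3 lists. Of the background genes, 1.94% were called higher in POMC Glp1r+ and 1.19% higher in POMC Lepr+ neurons. An unadjusted p under 0.05 in the authors' DESeq2 test was found for 15.0% of them. Of 22 adaptors and kinases that connect integrins to actin and to signalling, 1 was called in each direction and 7 had an unadjusted p under 0.05. Ptk2b, a calcium-sensitive relative of focal adhesion kinase, was higher in POMC Glp1r+ neurons (0.645 and 2.31, log2 difference 1.84, SE 0.27, adjusted p = 1.57e-08), and Nedd9, a scaffold that binds focal adhesion kinase, was higher in POMC Lepr+ neurons (2.24 and 1.02, log2 difference -1.14, SE 0.30, adjusted p = 0.0119). Focal adhesion kinase itself, Ptk2, had ratios of 0.846 and 0.860.

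Of 26 integrin ligands other than laminins and collagens, 1 was called higher in POMC Glp1r+ and 2 higher in POMC Lepr+ neurons, and 8 had an unadjusted p under 0.05. Icam2, an endothelial and leukocyte ligand of Itgal receptors, was higher in POMC Glp1r+ neurons (0.246 and 1.84, log2 difference 2.90, SE 0.83, adjusted p = 0.0276). Npnt, or nephronectin, the ligand of the Itga8 receptor, was higher in POMC Lepr+ neurons (2.24 and 1.05, log2 difference -1.09, SE 0.21, adjusted p = 0.000127). So was Fn1, or fibronectin, the ligand of Itga5 receptors (log2 difference -1.98, SE 0.54, adjusted p = 0.0180). The receptor subunits Itga8 and Itga5 were not called.

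Of 20 basement membrane proteins and laminin receptors of other families, 1 was called. Ntng1, a membrane-anchored netrin with laminin-like domains that acts at synapses, was higher in POMC Glp1r+ neurons (0.786 and 1.68, log2 difference 1.09, SE 0.22, adjusted p = 0.000306). None was called higher in POMC Lepr+ neurons, and 3 had an unadjusted p under 0.05 in the authors' DESeq2 test. Dag1, the dystroglycan laminin receptor, had ratios of 0.883 and 0.748.

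The median log2 differences of these lists were -0.05, -0.01 and -0.23, in the same order, each nearer to 0 than that of the integrins. Astrocyte and oligodendrocyte markers were below the input in both lines and lower in POMC Glp1r+ pools by their point values. Log2 differences were below 0 for 7 of 7 astrocyte markers and 7 of 7 oligodendrocyte markers. Tanycyte and ependymal markers had summed ratios of 9.46 and 4.08, of which Vim alone gave 5.42 and 1.87. Of these markers, 4 had log2 differences below 0 and 2 above. Pan-neuronal markers had summed ratios of 10.5 and 11.9. None of the markers in these 4 lists was called, and 2, 1, 2 and 3 had an unadjusted p under 0.05 in the authors' DESeq2 test. All 5 POMC neuron markers had log2 differences below 0, with a median of -1.37 against -0.56 for the integrins, and 3 had an unadjusted p under 0.05. Of these, Cartpt was called higher in POMC Lepr+ neurons (48.6 and 11.0, adjusted p = 0.00291). Further below 0 than the integrin median were the medians of astrocyte (-0.61), microglia (-0.69), oligodendrocyte (-0.74), fibroblast (-0.96) and tanycyte and ependymal (-1.21) markers. Those of mural (-0.37), endothelial (-0.40) and other leukocyte (-0.42) markers lay nearer to 0, and that of pan-neuronal markers was 0.26. The part of other cells, or of the lower POMC neuron markers, in the lower integrin values of POMC Glp1r+ pools was not tested.

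**Figure D4:**
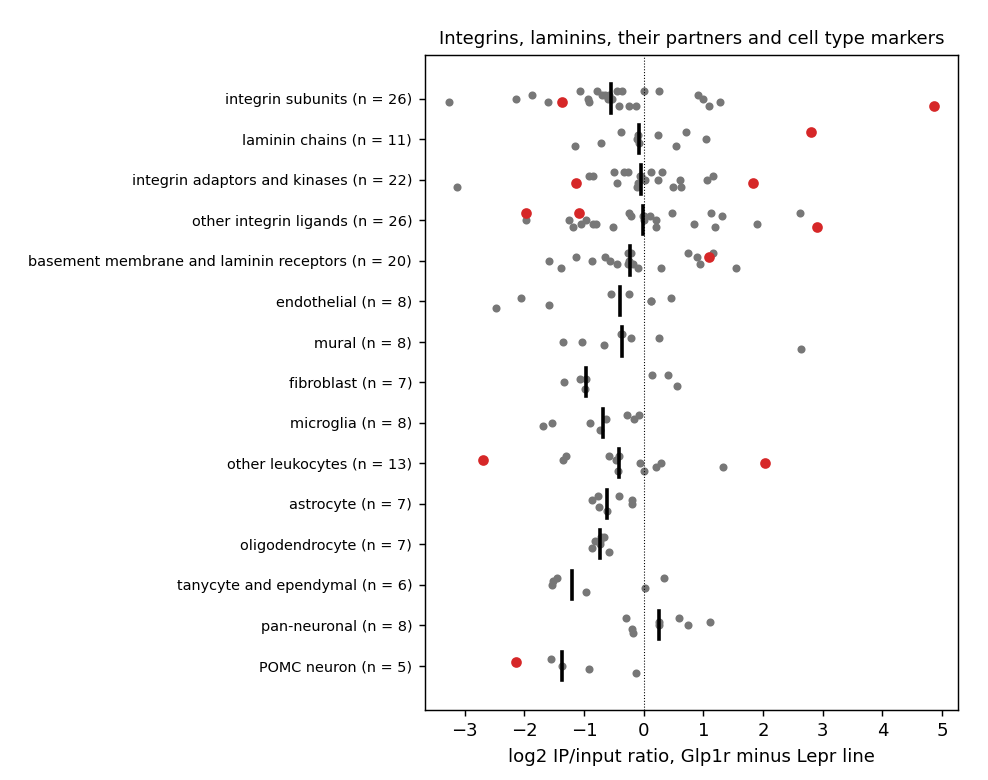
Log2 difference of the IP/input ratio, POMC Glp1r+ minus POMC Lepr+, of each gene (points) of the integrins, laminins, 3 lists of partner genes and 10 lists of cell type markers, with the median of each list (black bars). Red points have an adjusted p under 0.05; the integrin median is -0.56 and the laminin median is -0.07.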

How the data were processed

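Alignment by the authors used STAR and GRCm38.p6 within nf-core/rnaseq, and Salmon gave gene counts (version 0.14.1 per the submitters' processing notes). The authors took the ratio of IP to input counts per pool and tested the lines against each other with the Wald test of DESeq2 1.26.0. The deposited file is this comparison alone and has no column for any library. The mean column is a score that averages IP/input ratios, on a scale of 1000, over the authors' 7 pools. The fit took these scaled ratios as counts. The number of reads behind a ratio therefore enters its SE, interval and p-value only through the spread between pools. Its log2 fold changes, SEs, p-values and adjusted p-values (Benjamini-Hochberg over 43199 genes) are those of the authors. As the file holds nothing else, these statistics are described, and no test of libraries was made. The paper and the labels differ on the read length and the Ensembl release.

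With 4 and 3 pools as weights, the mean and the log2 value of a gene give the mean ratio of each line. The sum for POMC Lepr+ was a whole number (tolerance 0.1) in 99.8% of genes, all 37 members included. Of all genes, 13002 had a ratio of 1 in both lines, but no member did. The addition of 1 to each count is read from the values. The fewest reads that could give the sums of a gene were found by listing all sums. They were 10 or fewer for each member, a lower bound that mostly says nothing, and depth is unknown. The CV between pools was solved from the SE, the mean ratios and size factors of 1. It is a fitted value, not a measured SD. These steps were tested on simulated data. All 37 members were matched to GENCODE M21, and 12 share exon bases with another gene. Software was Python 3.11.15 with scipy 1.17.1, numpy 2.4.6, pandas 2.3.3 and matplotlib 3.10.9.

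The members and all lists were chosen with earlier results of these data known. Named were the members, by role (1 is not reported here by name), and from the other lists each gene called. Ptk2, Madcam1, Vcam1, Cdh1, Dag1 and Pomc were added for their roles once their values were known. Alternatives were another gene set for the adjustment, a centring on the median protein-coding gene, a t distribution, and other thresholds. Pools are separate mice, so the p-values rest on a spread between pools. That spread is the one the authors' fit modelled, 1 value for both lines, and not one measured here.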

Additional observations from a re-analysis of the deposited data

Results flagged for a closer look

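The comparison is itself the difference between 2 effects under the same contrast, IP over input in each line. Each member called is thus a tested difference between the lines, and neither effect was tested on its own. Itgb7 differed by 4.87 on the log2 scale, Lamc3 by 2.80 and Itga6 by -1.37, POMC Glp1r+ minus POMC Lepr+. In all 3 the mean ratio lay below 1 in one line and above 1 in the other. Values of single pools were not used here, and extreme pools were not looked for.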

How the results depend on the processing

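Itgb7 and Lamc3 were the 2 members called higher in POMC Glp1r+ neurons when p-values were adjusted over the protein-coding background genes, after centring, and at adjusted p under 0.01 or under 0.1. With a t distribution of 5 degrees of freedom the count was 0. Itga6, the 1 member called higher in POMC Lepr+ neurons, was called under the same alternatives except adjusted p under 0.01, where the count was 0, and the t distribution, where it was also 0. Under that distribution no gene of the table was called. An unadjusted p under 0.05 was left for 2126 of 43199 genes (4.92%), which include genes with a ratio of 1 in both lines. It was left for 7.22% of the background genes and for 4 of 34 members, the 3 called and Itgb1. With the t distribution the adjusted p was 0.999 for Itgb7, Lamc3 and Itga6. Their lowest adjusted p over the alternatives was 0.00127, 0.00202 and 0.0124. The lowest for Itgb1 was 0.0963, and no other member was called with 1 choice changed at a time. The looser threshold of 0.1 was not combined with another alternative, and 0.0963 lies under it. Centring subtracted 0.07 from each log2 difference and moved the median of the members from -0.39 to -0.45.

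No paired analysis was possible because the table holds no values of single libraries, and leaving out each replicate in turn was not run for the same reason. Depth per library is unknown.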
